A study of Mus musculus with 4 samples.

Results

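The genes described here encode carriers that move amino acids across the cell membrane and the lysosomal membrane. They were taken by name from the deposited gene table: protein coding genes of the solute carrier families Slc1, Slc3, Slc6, Slc7, Slc36, Slc38 and Slc43, with the cystine carrier gene Slc7a11 left out. The table lists 63 such genes among 54532 genes. Of these 63, 20 had a mean level of at least 1 FPKM (a measure that divides reads by gene length and library size) over the 4 libraries, and 43 lay below it. The name rule also takes Slc7a6os, which is named for its place next to Slc7a6 and encodes no carrier.

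The series measured RNA of mouse T cells. Wild-type naive CD4+ T cells of spleen origin spent 3 days in culture under polarizing conditions for Tfh cells, the follicular helper cells that assist B cells in making antibody. The DMF group held dimethyl fumarate, a fumaric acid ester known to activate the transcription factor Nrf2, and the control group held none. Each group has 2 libraries, all wild type and all under the same Tfh conditions, and no dose, age or sex is given in the sources used here. Nothing in the labels says that the libraries of a group came from separate mice or cultures, so p-values measure only the spread between these libraries, which may be technical.

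A T cell that leaves its resting state must take up large amounts of amino acids to build protein. Leucine and other large neutral amino acids enter through CD98, a dimer of the heavy chain Slc3a2 and a light chain. With the light chain Slc7a5, known as LAT1, the dimer exchanges them for amino acids already inside. Glutamine, often the amino acid given up in that exchange, enters through Slc1a5 and through sodium-coupled carriers of the Slc38 family. Carriers on the lysosome return amino acids from broken-down protein and take part in the sensing of amino acids by the kinase complex mTORC1.

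In the DMF libraries most of the expressed carriers stood at or above their control level. Both DMF libraries lay above both controls in 11 of the 20 expressed genes, against 26.4% of the 12166 genes tested, and below both controls in 0 of the 20, against 26.8% of the genes tested. Those 11 were Slc7a5, Slc7a6, Slc1a4, Slc1a5, Slc7a1, Slc7a3, Slc38a1, Slc38a6, Slc36a1, Slc36a4 and Slc6a9. The median difference, DMF minus control on the log2(FPKM + 1) scale, was 0.21 over the 20 genes and -0.01 over all genes tested, and it was positive for 19 of the 20 and for 5951 of all 12166. No carrier passed limma's test at an adjusted p under 0.05, where 0% of all genes did, and 5 carriers had an unadjusted p under 0.05 (9.45% of all genes did), all 5 of them higher in DMF (3.14% of all genes met this p and were higher). voom on recovered reads, limma's method for counts, also called 0 carriers and 0 genes, with 6 carriers and 1187 genes at an unadjusted p under 0.05. Slc7a3 and Slc6a9 reached a mean of 1 FPKM only through the DMF libraries, so their direction is not independent of the filter. Both are counted in the 11, the 19, the 5 and the median above. Of the 18 genes averaging at least 1 FPKM in each group, 9 lay above both controls and 0 below, against 26% and 26.1% of the 11375 such genes. In bulk RNA, more cells of a type and more RNA per cell cannot be told apart.

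**Figure D1:**
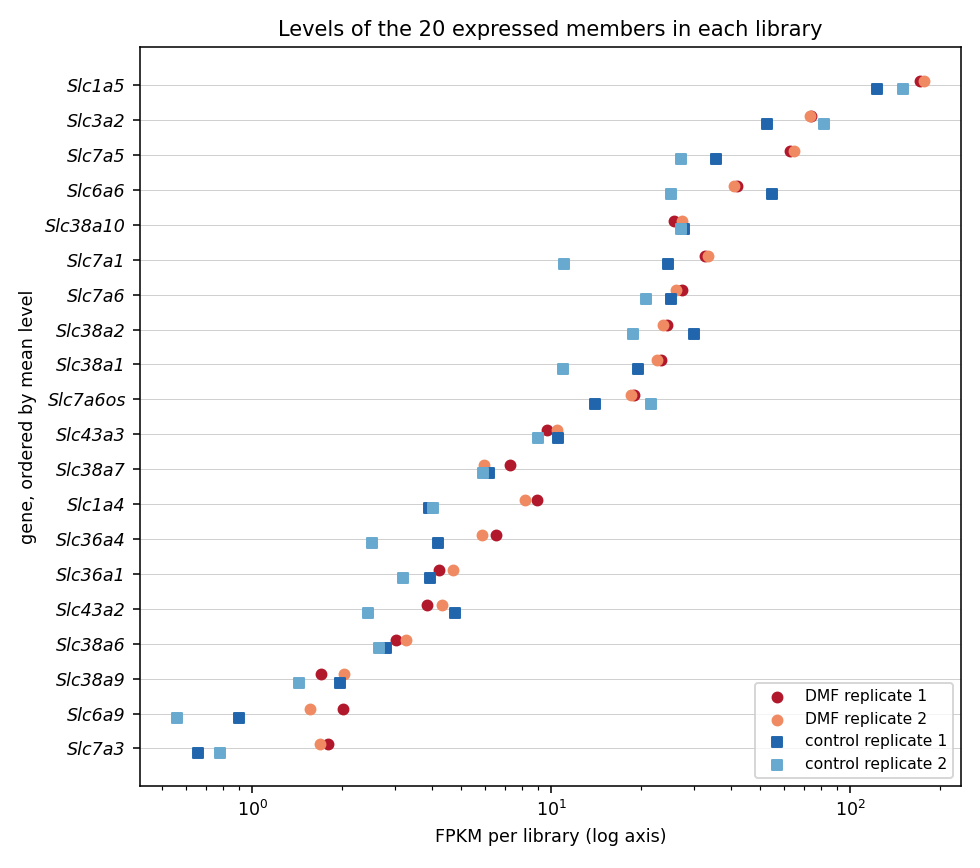
FPKM of the 20 expressed genes in each library on a log axis, DMF libraries as circles and controls as squares, with genes ordered by their mean. The DMF circles lie close together and right of both control squares for 11 genes, while the controls lie far apart for genes such as Slc7a1, with 24.6 and 10.996 FPKM.

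The control libraries were unlike each other, and this touches each comparison that follows. Recovered reads came to 17134385 and 17516953 in DMF replicates 1 and 2 and to 17171199 and 15900118 in control replicates 1 and 2. The library sizes implied by the FPKM were 18302380 and 18672223 in DMF and 17725674 and 13929627 in control libraries. Only control replicate 2 was thus scaled to fewer reads than recovered. Ribosomal protein genes held 12.3% of its reads, against 6.14% in control replicate 1 and 5.55% and 5.54% in the DMF libraries. The SD over genes of the log2 difference within a group was 0.32 between the DMF libraries and 0.74 between the controls. Control replicate 2 read lower with rising gene length past the shortest genes, and the carriers are long, with a median length of 5383 bp against 3643 bp for all genes tested. It lay below the mean of the other 3 libraries in 17 of the 20 expressed carriers and in 46.9% of all genes tested. In 8 of the 11 carriers above both controls, control replicate 2 was the lower control. Without control replicate 2, 13 of the 20 carriers lay above and 5 below the remaining control, against 43.4% and 39.6% of all genes. Without control replicate 1, 17 lay above and 2 below, against 43.6% and 49% of all genes. With the trend on gene length removed from each library, 11 lay above both controls and 2 below, against 27.2% and 27.1% of all genes. All of those 11 were among the first 11 except Slc3a2, which took the place of Slc38a6.

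**Figure D2:**
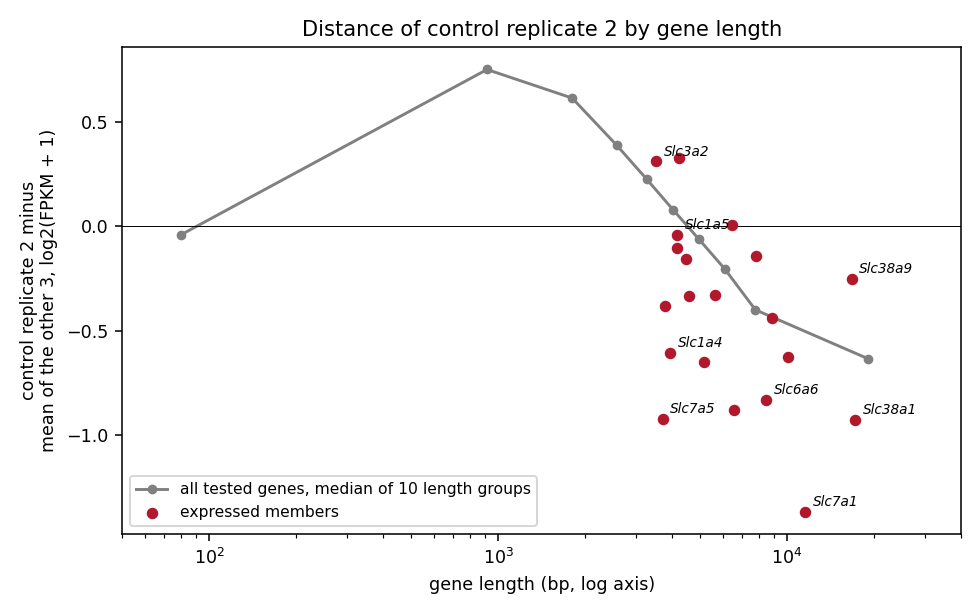
Distance of control replicate 2 from the mean of the other 3 libraries, on the log2(FPKM + 1) scale, against gene length on a log axis, for the 20 expressed genes (red) and as the median of 10 length groups of all genes tested (grey line). Slc7a1, Slc7a5 and Slc38a1 lie below the line, and Slc3a2 lies above zero.

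Marker genes of other cells also differed between the groups. For comparison, 26.4% of all genes tested lay above both controls and 26.8% below. All 7 CD4 T cell markers were expressed, of which 5 lay below both controls and 0 above, and their summed level was 1257 and 1258 FPKM in the DMF libraries, against 1303 and 1700.2 FPKM in the controls. Of 7 markers of CD8 T and NK cells, 6 lay below both controls, with sums of 12.9 and 13.8 FPKM in DMF and 131 and 202 FPKM in control libraries, and Ncr1 was at 0 in all 4. Gzmb held most of the control sums, with 5.14 and 5.82 FPKM in DMF and 98.1 and 131 FPKM in control libraries. Of 8 B cell markers, 7 lay above both controls and Ighm below. The B cell sums were 89.3 and 87.9 FPKM in DMF and 81.8 and 121 FPKM in control libraries. Most of these sums came from Ighm, with 62.7 and 62.4 FPKM in DMF and 71.6 and 107 FPKM in control libraries. Of the 7 myeloid markers, 1 lay above both controls and 3 below. The 7 summed to 9.49 and 7.57 FPKM in DMF and 9.61 and 14.8 FPKM in control libraries. Dendritic and erythroid markers stayed under 1 FPKM in sum except for 2.12 FPKM of erythroid markers in DMF replicate 2, and platelet markers summed to between 1.55 and 2.14 FPKM. The part of such cells in the carriers' levels was not tested.

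The CD98 light chain Slc7a5 was about 2-fold higher with DMF, while its heavy chain lay between the controls in the deposited FPKM. Slc7a5 (ENSMUSG00000040010, GRCm38 chromosome 8, 121881150 to 121907694, minus strand) had 62.9 and 64.7 FPKM in the DMF libraries, against 35.6 and 27.2 FPKM in the controls. The groups did not overlap, and the lowest DMF value stood well clear of the highest control. Its mean was 63.8 ± 1.32 FPKM in DMF and 31.4 ± 5.88 FPKM in control libraries (SD, n = 2 libraries each), a ratio of 2.03. The log2 difference was 1.01 ± 0.22 (SE, limma adjusted p = 0.327). Leaving out control replicate 1 gave 1.20, and leaving out control replicate 2 gave 0.83.

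Slc3a2 (GRCm38 chromosome 19, 8706882 to 8723369, minus strand), the heavy chain that carries its partners to the cell surface, had 73.8 and 73.3 FPKM in DMF and 52.6 and 81.8 FPKM in control libraries. The DMF values lay between the controls, and the difference was 0.16 ± 0.28 (SE, limma adjusted p = 0.773). Its sign depended on the control, with -0.15 when control replicate 1 was left out and 0.48 when control replicate 2 was. With all 4 libraries kept, Slc3a2 lay above both controls under 4 alternatives, and none of these was called. Its difference was 0.33 scaled to the read total, 0.49 with quantile normalization, 0.33 with voom and 0.25 with the length trend removed. Of all 12166 genes, 4368, 3610, 4367 and 3314 lay above both controls under these, against 3209 as reported. Scaling to the read total and voom also moved the median of all genes up, by 0.14 and 0.16. The level of Slc7a5 per level of Slc3a2 within a library came to 0.852 and 0.883 in DMF, against 0.675 and 0.333 in control libraries.

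Slc7a6, the light chain of y+LAT2, which exchanges cationic for neutral amino acids, was also above its controls. It had 27.5 and 26.2 FPKM in DMF and 25.1 and 20.7 FPKM in control libraries, a difference of 0.23 ± 0.19 (SE, limma adjusted p = 0.594), against 1.01 for Slc7a5, and whether these differ was not tested. For Slc7a6 it came to 0.36 when control replicate 1 was left out and to 0.09 when control replicate 2 was. The groups did not overlap, but the gap to control replicate 1 was narrow. Slc7a5 stood at 2.29 and 2.47 times the level of Slc7a6 in DMF libraries, against 1.41 and 1.32 times in controls. The other light chains were near silent, with Slc7a7 (y+LAT1) at no more than 0.579 FPKM in any library, Slc7a8 (LAT2) at no more than 0.142 and Slc7a10 with 1 read in all. Reads of Slc7a7 may come from Oxa1l, a mitochondrial membrane protein gene on the other strand at the same place, at between 11.5 and 18.9 FPKM. Slc7a11, the cystine light chain that the name rule leaves out and a known Nrf2 target, had 19 and 24 reads in DMF and 8 and 6 reads in control libraries.

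**Figure D3:**
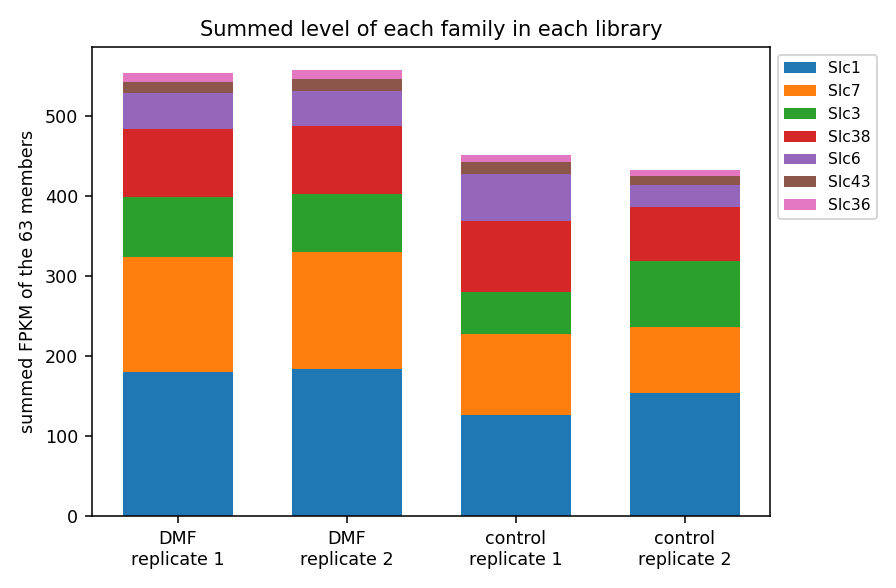
Summed FPKM of the 63 genes in each library, stacked by family, DMF libraries left of the controls. The sums are 554 and 558 FPKM in DMF and 452 and 433 FPKM in control libraries, with the Slc1 and Slc7 blocks taller in the DMF bars.

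The exchangers of small neutral amino acids, Slc1a5 and Slc1a4, were both above their controls. Slc1a5 (GRCm38 chromosome 7, 16781340 to 16798274, plus strand), known as ASCT2 and a glutamine carrier of activated T cells, was the most abundant gene of the set. It had 171 and 176 FPKM in DMF, against 123 and 150.4 FPKM in control libraries, and took between 27.2% and 34.8% of the summed FPKM of the 63 genes in a library. The difference was 0.35 ± 0.25 (SE, limma adjusted p = 0.568). It came to 0.21 with control replicate 1 left out and to 0.50 with control replicate 2 left out. Quantile normalization gave 0.85, and scaling to the read total and voom gave 0.52 each. The median of all genes moved up by 0.04, 0.14 and 0.16 under these.

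Slc1a4 (ENSMUSG00000020142, GRCm38 chromosome 11, 20302180 to 20332713, minus strand), known as ASCT1 and a carrier of serine, alanine and cysteine, had the smallest p of the set. Its level was 8.96 and 8.13 FPKM in DMF, against 3.91 and 4.02 FPKM in control libraries. Here the controls lay close together, and so did the DMF libraries. The means were 8.55 ± 0.589 FPKM in DMF and 3.97 ± 0.0808 FPKM in control libraries (SD, n = 2 libraries each), a ratio of 2.16, with a log2 difference of 0.94 ± 0.17 (SE, limma adjusted p = 0.258). Leaving out a library kept that difference between 0.88 and 1.00, and with the length trend removed it was 0.99. The level of Slc1a5 was 19.1 and 21.7 times that of Slc1a4 in DMF and 31.4 and 37.4 times in control libraries.

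The promoter of Slc1a4 is shown because it alone, among the 14 expressed genes found in the promoter table from RefSeq (GRCm38.p6), holds the C/EBP-ATF response element, the motif through which ATF4 acts in amino acid shortage. The window runs from 250 bases before to 50 bases after the gene start, at chr11:20332664-20332963 on the minus strand, written 5′ to 3′ with the motif in capitals.
Slc1a4 promoter: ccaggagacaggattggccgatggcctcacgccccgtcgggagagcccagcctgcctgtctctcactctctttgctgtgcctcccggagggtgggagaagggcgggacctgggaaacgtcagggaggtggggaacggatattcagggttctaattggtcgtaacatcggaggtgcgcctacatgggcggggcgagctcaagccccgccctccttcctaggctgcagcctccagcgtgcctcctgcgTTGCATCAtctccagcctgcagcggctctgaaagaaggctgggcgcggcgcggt
The letters searched were TGATGNAA on both strands, and the match reads TGATGCAA on the other strand, from base 247 to base 254 of the window, so it spans the annotated start. Of 32851 promoters of this length, 3.97% hold the motif, and 4.51% of the 27025 genes in the promoter table have a promoter that does. A second search, for the E box CACGTG that Myc and related factors bind, found it in Slc36a1 and Slc38a7. It stands in 7.15% of all promoters and in a promoter of 8.09% of all genes there. Slc7a5, Slc1a5, Slc38a1, Slc6a6, Slc43a3 and Slc7a3 were not searched. Atf4 had 205 and 198 FPKM in DMF, between the controls at 166 and 279 FPKM. Myc had 112 and 113 FPKM in DMF, between the controls at 110 and 144 FPKM. Whether either factor acts on these promoters here was not tested.

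The expressed carriers of arginine and lysine were higher in both DMF libraries. Slc7a1 (GRCm38 chromosome 5, 148327410 to 148399904, minus strand), known as CAT1 and the main arginine carrier of many cells, had 32.6 and 33.4 FPKM in DMF, against 24.6 and 10.996 FPKM in control libraries. Both DMF values lay above both controls, but the controls differed from each other more than control replicate 1 did from DMF. The difference was 0.96 ± 0.40 (SE, limma adjusted p = 0.549). It came to 1.504 with control replicate 1 left out and to 0.41 with control replicate 2 left out. With the gene length trend removed it was 0.63.

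Slc7a3, a related arginine carrier known as CAT3, was low but higher in both DMF libraries. It had 1.79 and 1.68 FPKM in DMF, from 124 and 119 reads, against 0.656 and 0.778 FPKM in control libraries, from 44 and 41 reads. The ratio of the means was 2.42, and the log2 difference of 0.67 ± 0.22 (SE, limma adjusted p = 0.497) understates it because of the added 1. This gene entered the test through its DMF values, since both controls lay under 1 FPKM. Slc7a2, known as CAT2, had 0 and 4 reads in DMF and 15 and 7 reads in control libraries.

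Of the sodium-coupled glutamine and alanine carriers on the cell surface, Slc38a1 lay above its controls and Slc38a2 did not. Slc38a1, known as SNAT1, had 23.2 and 22.5 FPKM in DMF and 19.5 and 10.95 FPKM in control libraries. Control replicate 2 stood far below the other 3 libraries, and this gene is 17236 bp long. Its difference of 0.61 ± 0.31 (SE, limma adjusted p = 0.561) was 0.22 without control replicate 2 and 0.17 with the length trend removed. Slc38a2, known as SNAT2 and induced when amino acids run short, had 24.3 and 23.5 FPKM in DMF, between the controls at 30.04 and 18.8 FPKM. Its difference was 0.01 ± 0.28 (SE, limma adjusted p = 0.992), with 0.33 and -0.32 when control replicate 1 or control replicate 2 was left out.

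**Figure D4:**
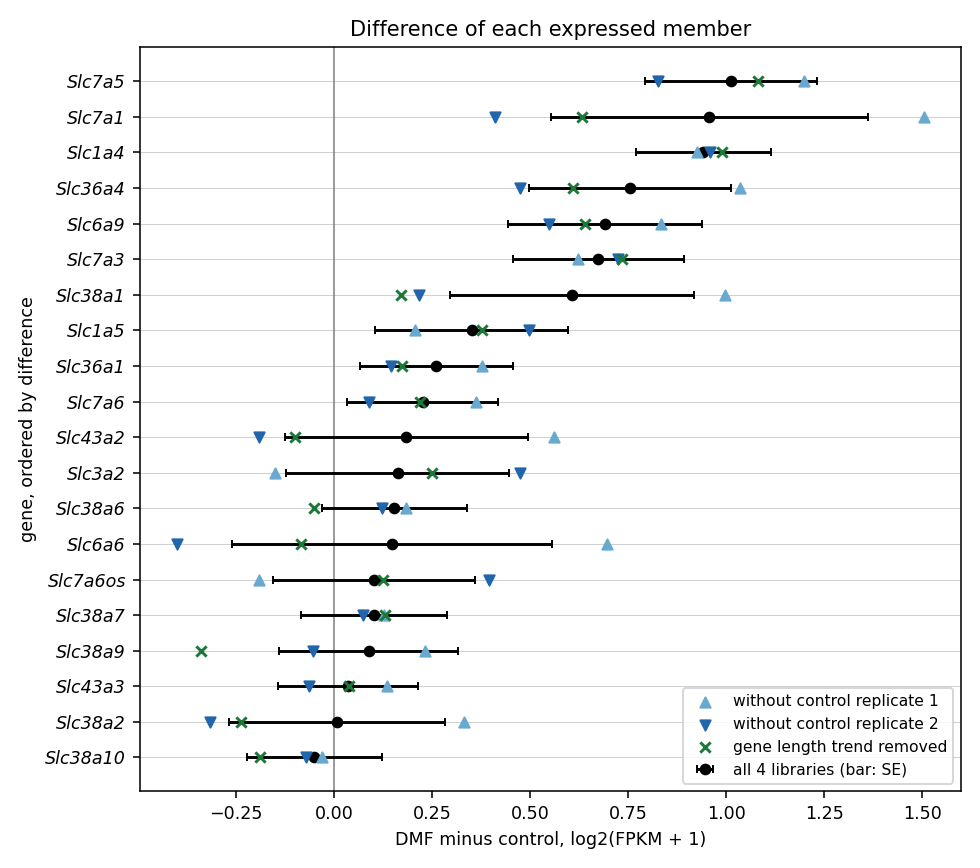
Difference of DMF minus control on the log2(FPKM + 1) scale for the 20 expressed genes, as black points with their SE from all 4 libraries. Triangles give the value without control replicate 1 or 2 and crosses that with the gene length trend removed. Slc1a4 stays between 0.93 and 0.99 in all of these, while Slc3a2, Slc6a6 and Slc38a2 cross zero.

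Of 4 proton-linked or lysosomal carriers, Slc36a4 and Slc36a1 lay above their controls and Slc38a7 and Slc38a9 overlapped. Slc36a4, a relative of Slc36a1 with affinity for proline and tryptophan in human cells, had 6.53 and 5.88 FPKM in DMF, against 4.18 and 2.51 FPKM in control libraries. The groups were apart, with a difference of 0.75 ± 0.26 (SE, limma adjusted p = 0.507) that was 0.47 without control replicate 2. Slc36a1, known as PAT1, which carries small neutral amino acids out of the lysosome, had 4.195 and 4.69 FPKM in DMF and 3.92 and 3.19 FPKM in control libraries (0.26 ± 0.20, SE, and 0.14 without control replicate 2). Slc38a9, the lysosomal arginine sensor that acts on mTORC1, overlapped, with 1.70 and 2.02 FPKM in DMF and 1.97 and 1.43 FPKM in control libraries. Slc38a7, known to release glutamine and asparagine from lysosomes, overlapped too, at 7.25 and 5.94 FPKM in DMF and 6.19 and 5.92 FPKM in control libraries. Reads of Slc38a9 and of Gm47827, an antisense gene at the same place with 0.694 to 4.36 FPKM, cannot be told apart without strand.

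Of the remaining expressed genes, the glycine carrier lay above its controls and the taurine carrier between them. Slc6a9, known as GlyT1, had 2.01 and 1.56 FPKM in DMF, from 189 and 150 reads, against 0.900 and 0.559 FPKM in control libraries, from 82 and 40 reads. Both controls were under 1 FPKM, so it too entered the test through its DMF values (0.69 ± 0.25, SE, limma adjusted p = 0.521). Slc6a6, the taurine carrier, had 41.7 and 40.9 FPKM in DMF, between control replicate 1 at 54.8 FPKM and control replicate 2 at 25.1 FPKM. Its difference was 0.15 ± 0.41 (SE, limma adjusted p = 0.86), with 0.70 and -0.40 when control replicate 1 or control replicate 2 was left out. Slc43a2, known as LAT4 and an exit route for leucine, had 3.83 and 4.30 FPKM in DMF, between 4.78 and 2.43 FPKM in the controls. Gm45606, an antisense gene at the same place, had 1.25 and 1.21 FPKM in DMF and 2.42 and 1.98 FPKM in control libraries. Reads of Slc43a2 and Gm45606 cannot be told apart without strand. Slc43a3, which carries purine bases and not amino acids, had 9.64 and 10.5 FPKM in DMF and 10.6 and 9.05 FPKM in control libraries.

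Slc38a6 had 3.03 and 3.25 FPKM in DMF and 2.81 and 2.65 FPKM in control libraries, a narrow gap with a difference of 0.15 ± 0.18 (SE). Slc38a10 had 25.6 and 27.4 FPKM in DMF and 27.9 and 27.1 FPKM in control libraries. It was the only expressed gene of the set with a negative difference in the fit to all 4 libraries (-0.05 ± 0.17, SE), and that sign turned under scaling to the read total (0.11). Slc7a6os had 18.9 and 18.5 FPKM in DMF, between the controls at 14.0 and 21.5 FPKM.

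Without control replicate 2, limma called 7 of the 20 genes, 6 of them higher in DMF, where 8.28% of all genes were called. Without control replicate 1 it called 12, of which 11 were higher, where 61% of all genes were called. Tests in both of these fits assume that the lone control varies as little as the DMF libraries do, while the controls themselves differed far more. Both fits also share the same DMF libraries. The sign differed between both fits for Slc3a2, Slc6a6, Slc38a2, Slc7a6os, Slc43a2, Slc43a3 and Slc38a9. Over the 16 alternatives run, 10 genes kept a positive difference in each that tested them: Slc1a4, Slc1a5, Slc36a1, Slc36a4, Slc38a1, Slc6a9, Slc7a1, Slc7a3, Slc7a5 and Slc7a6. Of these, Slc36a1, Slc36a4, Slc6a9 and Slc7a3 were not tested at a mean FPKM of at least 5. Slc6a9 and Slc7a3 passed the level filter only through the DMF libraries. All alternatives reuse the same libraries, and the same count over all genes was not made. The count of 10 is therefore no evidence about carriers. Over the alternatives that kept all 4 libraries, the limma adjusted p ran from 0.0873 to 0.421 for Slc7a5 and from 0.0571 to 0.392 for Slc1a4. Both lower ends came from the fit with no filter on low values. That fit called 1034 of all 54532 genes, against 0 of 12166 in the fit as reported.

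Of the 43 genes under 1 FPKM, 13 had no read in any library and 32 had a mean under 0.1 FPKM. A gene with 0 reads is compatible with up to 3 reads in a library, for counting error only. Among the 30 with at least 1 read, 5 lay above both controls and 8 below, against 15.5% and 13.7% of all genes at such levels. Carriers best known from neurons were here, such as the dopamine carrier Slc6a3 and the noradrenaline carrier Slc6a2, both with no read.

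Of the 8 low genes that lay below both controls in FPKM, a pair is described here. Slc6a12, the carrier of betaine and GABA, had 4 and 0 reads in DMF, against 45 and 31 reads in control libraries. Slc38a4, a sodium-coupled neutral carrier best known from liver and placenta, had 2 and 3 reads in DMF, against 16 and 31 reads in control libraries. These were named after their values were seen. In the fit with no filter on low values the difference was -0.78 for Slc6a12 (limma adjusted p = 0.0769) and -0.40 for Slc38a4 (limma adjusted p = 0.725). That fit called 1034 of all 54532 genes, while the fit as reported called 0 of those it tested. Slc6a8, the creatine carrier, had 71 and 69 reads in DMF and 82 and 47 reads in control libraries. Slc36a3 had 38 and 41 reads in DMF and 13 and 30 in control libraries, but Slc36a3os, an antisense gene at the same place, had 220 to 252 reads in DMF and 131 to 261 reads in control libraries, and the reads of the pair cannot be told apart without strand.

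**Figure D5:**
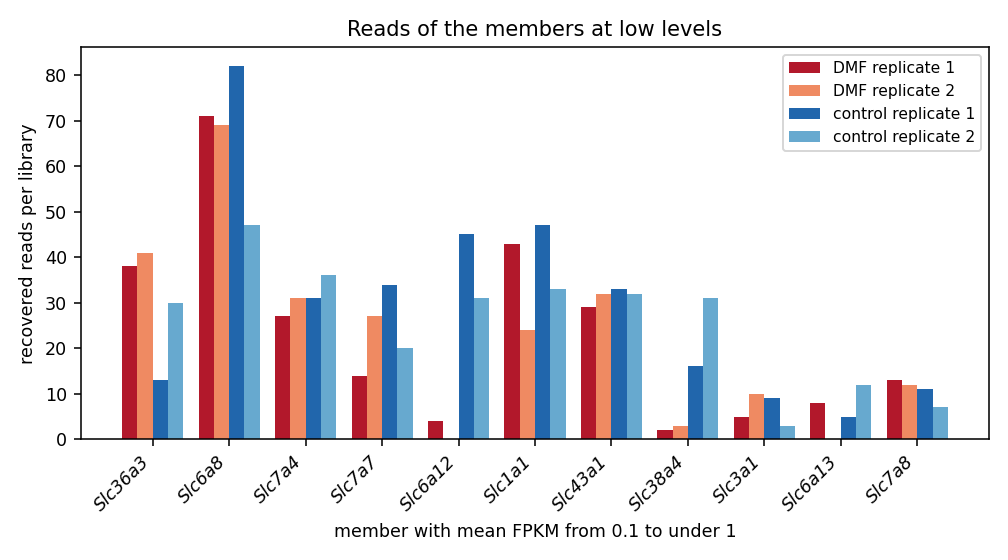
Recovered reads per library of the 11 genes with a mean from 0.1 to under 1 FPKM, DMF bars left of control bars. Slc6a12 and Slc38a4 have between 0 and 4 reads in the DMF libraries and between 16 and 45 in the controls.

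Of 25 further listed carriers of amino acids, made up of Slc7a11 and genes outside the 7 families, 18 were tested. Above both controls lay 7 of them and below both 5, against 26.4% and 26.8% of all genes, and limma called 0. An unadjusted p under 0.05 was found for 5 of them, against 9.45% of all genes, and the median difference was 0.02. Slc15a3, a lysosomal carrier of histidine and small peptides, had 9.79 and 9.71 FPKM in DMF, against 21.2 and 26.1 FPKM in control libraries (-1.19 ± 0.19, SE, limma adjusted p = 0.224). Slc17a8, a vesicular glutamate carrier known from neurons, had 3.38 and 3.65 FPKM in DMF, against 0.837 and 0.989 FPKM in control libraries (1.24 ± 0.20, SE, limma adjusted p = 0.231). It passed the level filter only through the DMF libraries. Slc16a10, the carrier of aromatic amino acids known as TAT1, had 5.82 and 5.29 FPKM in DMF and 3.16 and 3.10 FPKM in control libraries. Slc25a13, the mitochondrial exchanger of aspartate and glutamate, had 8.83 and 9.57 FPKM in DMF and 6.30 and 5.50 FPKM in control libraries.

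Of 32 genes by which mTORC1 senses amino acids 31 were tested, with 11 above both controls and 10 below, against 26.4% and 26.8% of all genes. limma called 0 of them, 1 had an unadjusted p under 0.05 (9.45% of all genes did), and the median difference was 0.00. Castor1, the cytosolic arginine sensor, had 6.49 and 6.70 FPKM in DMF, against 18.5 and 35.0 FPKM in control libraries (-1.80 ± 0.34, SE, limma adjusted p = 0.269). Sesn2, a leucine sensor, had 76.6 and 75.3 FPKM in DMF and 56.0 and 52.3 FPKM in control libraries, while Sesn1 had 7.99 and 8.96 FPKM in DMF and 12.1 and 10.7 FPKM in control libraries. Nprl2, a subunit of the GATOR1 complex that restrains mTORC1, had 7.82 and 6.04 FPKM in DMF and 9.53 and 16.0 FPKM in control libraries.

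Among 13 regulators and partners of the carriers, 8 were tested, with 1 above both controls and 2 below, against 26.4% and 26.8% of all genes. limma called 0, 1 had an unadjusted p under 0.05 (9.45% of all genes did), and the median difference was -0.17. Sgk1, a kinase known to raise carriers at the cell surface, had 1.79 and 1.23 FPKM in DMF, against 6.33 and 7.72 FPKM in control libraries (-1.68 ± 0.22, SE, limma adjusted p = 0.197). Eif2ak4, which encodes GCN2, the kinase that senses uncharged tRNA, had 5.30 and 4.62 FPKM in DMF and 3.43 and 1.86 FPKM in control libraries. Arl6ip5, which holds back the glutamate carrier Slc1a1, had 109 and 114 FPKM in DMF and 125 and 185 FPKM in control libraries, and Arl6ip1, which encodes a membrane protein of the endoplasmic reticulum, had 82.5 and 91.7 FPKM in DMF and 89.4 and 119.5 FPKM in control libraries.

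Of 19 genes of amino acid use in T cells, 14 were tested, with 3 above both controls and 6 below, against 26.4% and 26.8% of all genes. limma called 0, 1 had an unadjusted p under 0.05 (9.45% of all genes did), and the median difference was -0.03. Asns, the asparagine synthetase, had 15.8 and 16.5 FPKM in DMF and 8.19 and 11.996 FPKM in control libraries (0.65 ± 0.23, SE, limma adjusted p = 0.521). The branched-chain aminotransferase genes lay apart in opposite directions. Bcat1, the cytosolic form, had 18.9 and 19.0 FPKM in DMF and 13.0 and 14.2 FPKM in control libraries. Bcat2, the mitochondrial form, had 12.9 and 12.7 FPKM in DMF and 15.3 and 26.03 FPKM in control libraries. Glul, the glutamine synthetase, had 14.6 and 13.5 FPKM in DMF and 18.8 and 20.5 FPKM in control libraries.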

How the data were processed

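The authors deposited 1 table of FPKM values per gene and library, with gene names, coordinates and gene length (other values), per the file headers. For aligner and counter, no name is given in the sources used here. edgeR and the build mm8 appear in the submitters' processing notes, with no role. GENCODE M21 (GRCm38) holds most of the gene identifiers, and 98.26% of those have the same coordinates in the table, so coordinates are given as GRCm38. FPKM times gene length came out as whole multiples of a step, within 0.01, for 100% of values, which gave reads per gene. Intervals and floors cover counting error only. Library replicates within a group differed by more than counting error (chi-square per degree of freedom 3.61 for DMF and 147 for control) and were kept as 2 samples each.

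limma 3.58.1 in R 4.3.3 was fitted (lmFit, eBayes with a trend) to log2(FPKM + 1) of the 12166 genes averaging at least 1 FPKM, DMF minus control, two-sided, without covariates, with Benjamini-Hochberg adjustment over all of them and a threshold of 0.05. A difference on this scale understates changes of low genes. With 2 libraries against 2 an exact permutation test cannot go below p = 0.333, so none was used. Each carrier averaging at least 1 FPKM is named, and up to 4 genes with the smallest p of each further list. Atf4 and Myc are also given, beside the promoter motifs. One listed carrier, Slc66a1, was not matched by name. The genes and lists were chosen with earlier results of these data known. The alternatives were other pseudocounts, filters, scalings and variance models, voom on reads, removal of a gene length trend (loess, span 0.3), a replicate block and each library left out. The scripts were tested on simulated data. Some genes of the set are counted but not reported singly here.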

Additional observations from a re-analysis of the deposited data

How the results depend on the processing

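Carriers called stayed at 0 in each alternative that kept all 4 libraries. Over the libraries left out in turn, carriers called ran from 0 to 12, all genes called from 6 to 7420, carriers above the controls from 12 to 17, carriers below from 0 to 5 and the carriers' median from 0.18 to 0.37. Over the same left-out fits, all genes above the controls ran from 3914 to 5302 of 12166, and all genes below from 3988 to 5958. All genes called, 0 in the fit as reported, numbered 1034 with no filter on low values, 3 with the gene length trend removed and 552 with the replicate block. Whether equal numbers mean a shared mouse or day is not in the labels, and with the block 0 carriers were called. Same-numbered libraries' deviations from their group means correlated at -0.0233. Carriers above both controls numbered 6 at a mean FPKM of at least 5, where 13 were tested, against 1941 of 7731 genes. Carriers below numbered 8 with no filter, where all 63 were tested, and 2 with the length trend removed. Of all genes, 5181 of 54532 lay below with no filter, and 27.1% of those tested with the length trend removed. The carriers' median of 0.21 was 0.00775 with no filter, 0.36 scaled to the read total and 0.41 with voom on recovered reads. The median of all genes moved by 0.14 and 0.16 under these last 2 scalings, so relative to all genes the carriers' median was 0.23 and 0.26, against 0.22 as reported.

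Signs turned for 5 carriers with the length trend removed: -0.0833 for Slc6a6, -0.24 for Slc38a2, -0.10 for Slc43a2, -0.0519 for Slc38a6 and -0.34 for Slc38a9. Slc38a10 turned to 0.11 scaled to the read total, 0.0873 with quantile normalization and 0.11 with voom. With libraries left out, Slc3a2 ran from -0.15 to 0.48, Slc6a6 from -0.40 to 0.70, Slc38a2 from -0.32 to 0.33, Slc7a6os from -0.19 to 0.40, Slc43a3 from -0.0647 to 0.14, Slc38a7 from -0.0234 to 0.23, Slc43a2 from -0.19 to 0.56 and Slc38a9 from -0.0545 to 0.23. The cause was not tested. Depth limits the 43 genes under 1 FPKM, of which 32 averaged under 0.1 FPKM.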
